A study of Mus musculus with 4 samples.

Results

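The genes described here are 10 genes commonly used to recognise fat cells: Pparg, Fabp4, Lpl, Cidec, Plin1, Plin4, Retn, Adipoq, Lep and Cfd. They were given as a list, and for each the probe set annotated to exactly 1 symbol with the highest mean was taken. Of the 10 genes, 9 were measured among 22180 genes in all. Cfd, the serine protease of the complement system known as adipsin, had no probe set named in the annotation used and was not analysed here. Of the 9 measured genes, 7 passed the filter on low values and were tested among 12060 genes, and Adipoq and Lep did not pass it.

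The study profiled colon RNA of C57BL/6 mice aged 3 months on 4 Affymetrix arrays, 1 per group, so no group had a replicate. The groups were Dmt1F/F tumour (F/F tumour), Dmt1+/+ tumour (wild-type tumour), Dmt1F/F normal colon (F/F normal) and Dmt1+/+ normal colon (wild-type normal). All of them carried ApcF/+ and the label CDX2, which the labels do not spell out, and by convention an F allele is flanked by loxP sites and is lost where Cre is active. The study's design text names 4 F/F and 7 wild-type animals. How these animals map to the arrays, whether RNA was pooled, and whether a tumour and a normal piece came from the same animal are not given in the sources used here. Apc is the tumour suppressor that restrains Wnt signalling, and Dmt1 is the iron importer encoded by Slc11a2. Slc11a2 had a log2 signal of 6.19 in F/F tumour and 6.64 in wild-type tumour, and of 6.13 in F/F normal and 6.51 in wild-type normal, so that it was lower on the F/F array in both tissues. Its genotype difference was -0.41 and did not pass the test (limma, adjusted p = 0.564).

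White adipocytes store triglyceride in a large lipid droplet. Their identity rests on the nuclear receptor PPAR gamma, encoded by Pparg, which binds DNA with a retinoid X receptor and acts together with C/EBP factors on genes for fatty acid uptake, droplet coating and hormone secretion. In the gut, adipocytes lie in the mesentery and along the outer wall, so a piece of colon can carry few or many of them. Several genes of the list are also active in other cells: Pparg in the colonic epithelium, Fabp4 in capillary endothelium and macrophages, and Lpl in macrophages and muscle, whereas Adipoq and Plin1 are much closer to being adipocyte-only. In whole tissue, fewer cells of a type and less RNA per cell cannot be told apart.

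The promoters of these genes were read to show what their upstream sequence holds. Windows of 250 bases before an annotated start were available from RefSeq (GRCm38.p6) for 8 of the 10 genes, 11 windows in all, and Lpl and Fabp4 had none in the table. Motifs were searched on both strands. The PPAR direct repeat AGGTCANAGGTCA was in none of the 11 windows and in 0.0335% of the 32851 windows of all genes. The single repeat unit AGGTCA was in 2 of the 11, both of Pparg, and in 14.0% of all windows. The relaxed C/EBP motif TTGCNNAA was in 4 of the 11 windows and in 9.56% of all. Its full palindrome TTGCGCAA, which the relaxed motif includes, was in 1 of the 11, that of Lep, and in 0.164% of all. TATAAA was in 1 of the 11 windows, of Pparg, and in 12.4% of all. The 4 windows with a C/EBP match are shown because they are the ones that carry a motif of an adipogenic factor in more than 1 gene of the list. Capitals mark the match, and each sequence runs 5′ to 3′ on the strand of its gene and ends at the base before the start. The positions are chr6:29059971-29060220 on the plus strand for Lep, chr7:79732777-79733026 on the minus strand for Plin1, chr6:115421816-115422065 on the plus strand for the third Pparg start in the table, and chr6:113434765-113435014 on the minus strand for the second Cidec start.
Lep: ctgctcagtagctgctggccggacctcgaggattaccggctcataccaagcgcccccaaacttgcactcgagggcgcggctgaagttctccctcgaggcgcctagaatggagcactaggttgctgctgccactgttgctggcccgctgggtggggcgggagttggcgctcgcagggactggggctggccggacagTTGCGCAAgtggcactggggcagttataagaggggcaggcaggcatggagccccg
Plin1: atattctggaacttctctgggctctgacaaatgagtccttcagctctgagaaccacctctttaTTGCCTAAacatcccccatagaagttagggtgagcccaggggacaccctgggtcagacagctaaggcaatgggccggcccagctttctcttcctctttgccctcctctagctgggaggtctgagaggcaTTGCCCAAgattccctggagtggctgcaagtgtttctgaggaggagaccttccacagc
Pparg: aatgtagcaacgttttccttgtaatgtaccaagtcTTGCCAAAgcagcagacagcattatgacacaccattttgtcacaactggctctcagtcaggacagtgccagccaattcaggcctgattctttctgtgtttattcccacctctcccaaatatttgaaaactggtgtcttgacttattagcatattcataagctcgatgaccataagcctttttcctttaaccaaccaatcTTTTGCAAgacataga
Cidec: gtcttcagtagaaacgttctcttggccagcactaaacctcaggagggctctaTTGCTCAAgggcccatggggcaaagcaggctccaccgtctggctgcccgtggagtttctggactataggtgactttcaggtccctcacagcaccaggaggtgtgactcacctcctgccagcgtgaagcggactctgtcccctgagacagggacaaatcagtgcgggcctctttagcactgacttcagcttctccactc
A match is a run of letters and not a measured site, and no binding was measured in these samples.

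The members were lower in the tumours. On all 9 measured genes both tumour arrays lay below both normal arrays, a pattern that 29.1% of the 22180 genes measured showed. The median difference over the 9 genes was -1.95 on the log2 scale in F/F mice and -0.98 in wild-type mice, against -0.03 and 0.00 over all genes measured. In F/F mice 9 of 9 genes were lower in tumour by 2-fold or more (2.28% of all genes measured), and in wild-type mice 4 of 9 (3.07%). With tissue and genotype fitted as additive terms, 4 of the 7 tested genes fell in tumour, where 8.23% of the 12060 genes tested fell and 11.0% rose. None of the 7 rose. The fit has 1 residual degree of freedom, and with tissue as its only term 2 of the 7 fell, Pparg and Cidec, while Fabp4 (adjusted p = 0.0566) and Retn (adjusted p = 0.0941) did not pass. In that simpler fit none was called without the F/F normal array or without the wild-type tumour array.

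**Figure D1:**
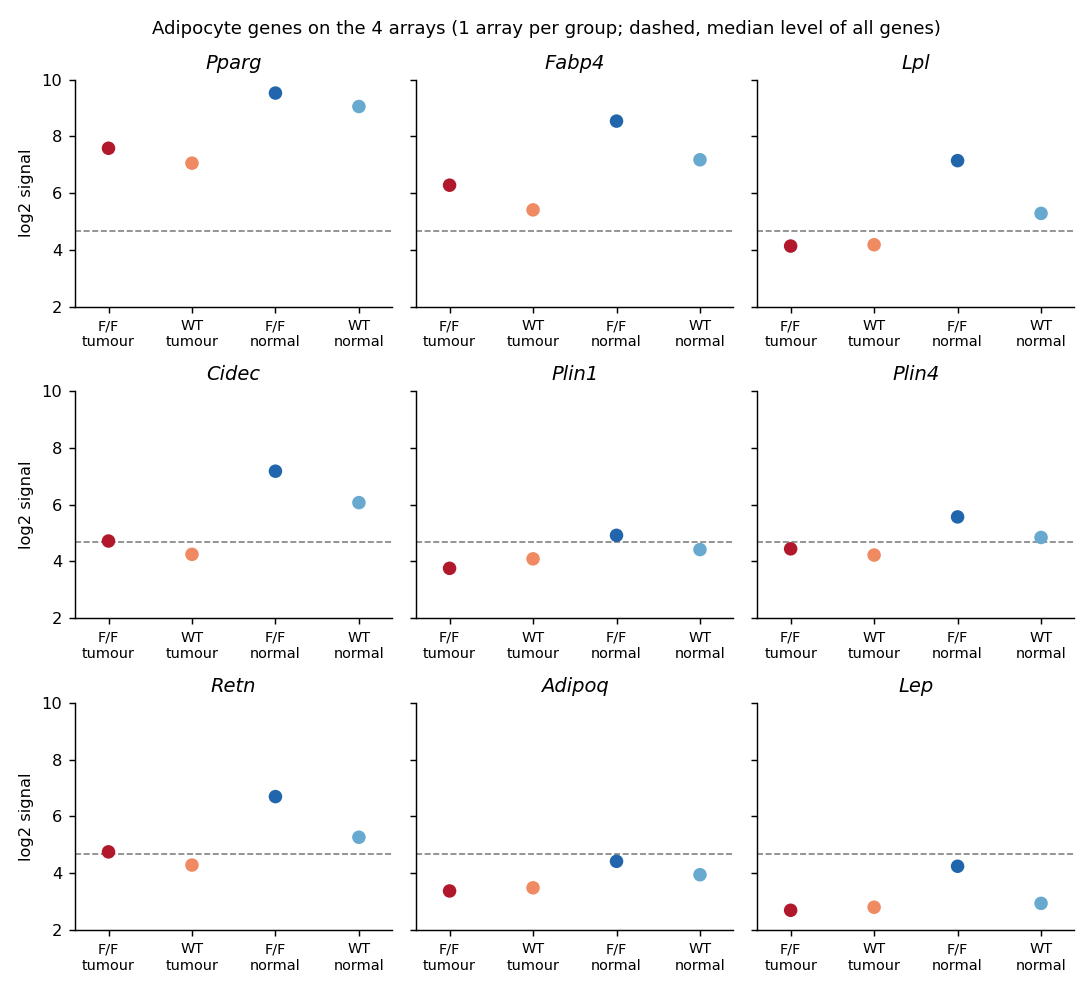
Log2 signal (vertical axis) of the 9 measured adipocyte genes on the F/F tumour, wild-type (WT) tumour, F/F normal and WT normal arrays, 1 point per array, with the dashed line at the median level of all genes, 4.67. Every gene is highest in F/F normal colon, and both tumour points lie below both normal points.

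Pparg, the receptor itself, had a log2 signal of 7.58 in F/F tumour and 7.06 in wild-type tumour, against 9.53 in F/F normal and 9.06 in wild-type normal. Both tumours were low by nearly the same amount, with differences of -1.95 in F/F and -2.00 in wild-type mice, and the F/F array was the higher one in each tissue. Pparg fell by 1.97 over both genotypes (SE 0.11, limma adjusted p = 0.00473, lower in 2 of 2 tumour arrays). Pparg and Fabp4 were above the median level of all genes on all 4 arrays, and the other measured members were not.

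Fabp4 encodes the fatty acid carrier of the adipocyte cytoplasm. Its log2 signal was 6.28 in F/F tumour and 5.41 in wild-type tumour, against 8.54 in F/F normal and 7.18 in wild-type normal. The tumours were 4.79-fold lower in F/F mice and 3.40-fold lower in wild-type mice. Over both genotypes it fell by 2.01 (SE 0.17, limma adjusted p = 0.00941). Lpl encodes the lipase that frees fatty acids from circulating lipoproteins for uptake. Its log2 signal was 4.13 in F/F tumour and 4.18 in wild-type tumour, against 7.15 in F/F normal and 5.29 in wild-type normal. The tumours were alike and below the median level of all genes, so that nearly the whole gap between the genotypes lay in normal colon, and the difference was -3.01 in F/F and -1.11 in wild-type mice. Its fitted difference of -2.06 (SE 0.48) did not pass the test (limma adjusted p = 0.0518). It passed after quantile normalization (adjusted p = 0.0410), cyclic loess (0.0362) or centring each array on its median (0.00749), and not with no filter (0.0550), no trend (0.0706), tissue as the only term (0.0703) or the mean of its probe sets, which gave -1.18 (adjusted p = 0.0753). With tissue as the only term and 1 array left out, it passed without the wild-type normal array (adjusted p = 0.0193) and not without any of the other arrays (0.117 to 0.206). A second Lpl probe set read between 2.57 and 2.97 on all 4 arrays.

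Cidec, Plin1 and Plin4 encode proteins of the lipid droplet surface. Cidec, which makes droplets fuse into larger ones, had a log2 signal of 4.72 in F/F tumour and 4.25 in wild-type tumour, against 7.18 in F/F normal and 6.07 in wild-type normal. It was 5.51-fold lower in F/F tumour and 3.54-fold lower in wild-type tumour, and over both genotypes it fell by 2.14 (SE 0.21, limma adjusted p = 0.0122). The tumour levels lie close to or below the median level of all genes, so the differences may understate the change. Plin1, the perilipin that guards stored triglyceride from lipases, had a log2 signal of 3.76 in F/F tumour and 4.09 in wild-type tumour, against 4.92 in F/F normal and 4.42 in wild-type normal. It reached the median level of all genes on the F/F normal array alone, and its fitted difference of -0.75 (SE 0.30) did not pass the test (limma adjusted p = 0.151). Plin4, a perilipin of small droplets, had a log2 signal of 4.44 in F/F tumour and 4.23 in wild-type tumour, against 5.57 in F/F normal and 4.85 in wild-type normal. Its fitted difference was -0.87 (SE 0.22, limma adjusted p = 0.0604), and it passed after cyclic loess (adjusted p = 0.0472) and centring on the median (0.0261), and under none of the other alternatives run (0.0524 to 0.294). Lpl, Plin1 and Plin4 passed the filter through normal arrays only, so that a lower value in tumour was built into their being tested.

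Retn, Adipoq and Lep encode the secreted products resistin, adiponectin and leptin. Retn had a log2 signal of 4.75 in F/F tumour and 4.28 in wild-type tumour, against 6.69 in F/F normal and 5.26 in wild-type normal. The F/F normal array stood 1.43 above the other normal array, and the differences were -1.95 in F/F and -0.98 in wild-type mice. Retn fell by 1.46 over both genotypes (SE 0.28, limma adjusted p = 0.0353). Adipoq had a log2 signal of 3.37 in F/F tumour and 3.48 in wild-type tumour, against 4.41 in F/F normal and 3.94 in wild-type normal. Lep had a log2 signal of 2.69 in F/F tumour and 2.79 in wild-type tumour, against 4.24 in F/F normal and 2.93 in wild-type normal. Adipoq and Lep were below the median level of all genes on every array, where the size and direction of a difference are uncertain, and they were not tested. The number of the 9 genes at or above that level was 4 in F/F tumour and 2 in wild-type tumour, against 7 in F/F normal and 6 in wild-type normal. Adipoq and Lep, the genes of the best known fat cell hormones, thus gave no clear signal, and the genes are described here as a list and not as a measured cell type.

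**Figure D2:**
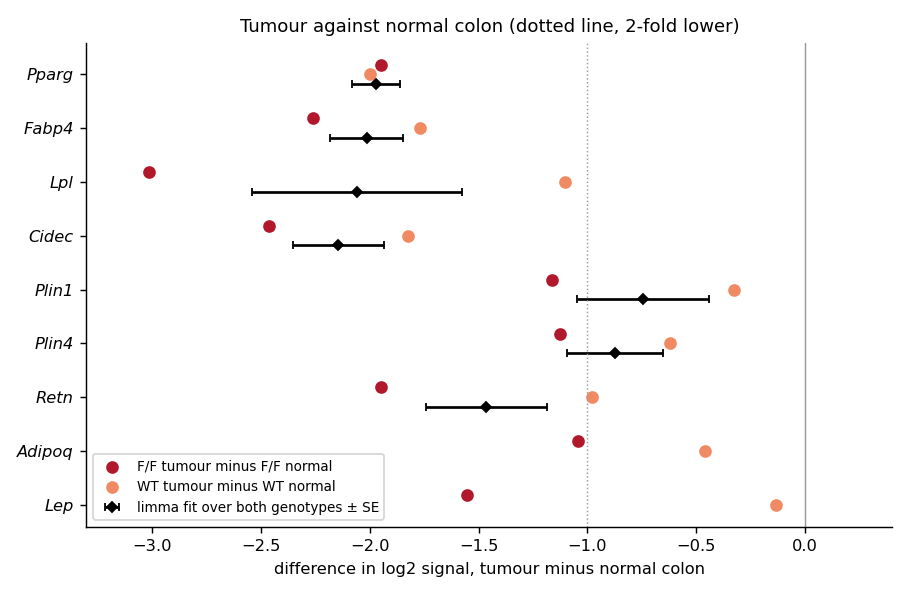
Difference in log2 signal, tumour minus normal colon (horizontal axis), for each measured adipocyte gene, in F/F mice and in wild-type (WT) mice (circles, 1 array against 1) and as fitted with limma over both genotypes (diamonds with SE bars, the 7 tested genes). All 18 circles lie below 0, and the F/F difference is the lower one for 8 of 9 genes, Pparg being the exception. How many of all genes measured have the lower difference in F/F was not counted. All F/F differences use the F/F normal array, on which 9 of 9 genes were highest (32.0% of all genes measured).

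The genotypes were compared within each tissue to ask whether the adipocyte genes follow Dmt1. In normal colon 9 of 9 genes were higher on the F/F array than on the wild-type array, where 53.9% of all genes measured were higher by any amount, and the median difference was 1.11 against 0.02 over all genes. Of the 9, 5 were higher by 2-fold or more (0.482% of all genes measured): Lpl by 1.86, Retn by 1.43, Fabp4 by 1.36, Lep by 1.31 and Cidec by 1.11. Plin4 was higher by 0.72, Plin1 by 0.50, and Pparg and Adipoq by 0.47 each. Lep and Adipoq were below the median level of all genes on every array, so their differences are uncertain. In tumour the genes divided, with 5 of 9 higher on the F/F array (47.5% of all genes measured), none by 2-fold or more (1.01%), and a median difference of 0.22. Fabp4 was higher in F/F tumour by 0.87, Pparg by 0.53, Cidec by 0.47, Retn by 0.46 and Plin4 by 0.22. Plin1 (-0.33), Adipoq (-0.11), Lep (-0.11) and Lpl (-0.05) had negative differences.

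**Figure D3:**
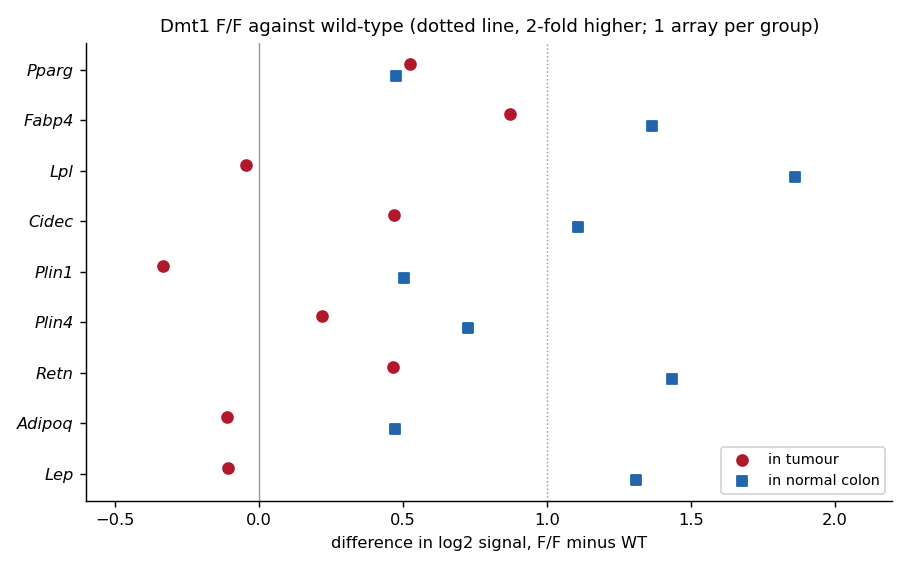
Difference in log2 signal, F/F minus wild-type (WT) (horizontal axis), of each measured adipocyte gene in tumour (circles) and in normal colon (squares), 1 array per group. The squares run from 0.47 to 1.86, and the circles from -0.33 to 0.87.

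No gene of the list passed the test for genotype. limma called 0 of the 12060 genes for F/F against wild-type over both tissues, with 991 at an unadjusted p under 0.05 (4.88% of all tested genes, higher in F/F, and 3.33%, lower in F/F). Among the 7 tested adipocyte genes, 4 had an unadjusted p under 0.05: Fabp4 with a fitted difference of 1.12 (SE 0.17, adjusted p = 0.512), Retn with 0.95 (SE 0.28, adjusted p = 0.564), Cidec with 0.79 (SE 0.21, adjusted p = 0.552) and Pparg with 0.50 (SE 0.11, adjusted p = 0.523), each higher on 2 of 2 F/F arrays. The tumour comparison in F/F mice and the genotype comparison in normal colon both use the F/F normal array, on which 9 of 9 genes had their highest value (32.0% of all genes measured). With the wild-type normal array as the baseline of the F/F tumour, an alternative added after seeing the data, the median F/F difference was -0.66 and 3 of 9 genes were lower by 2-fold or more (1.29% of all genes measured).

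Genes that mark position along the gut also separated the normal arrays. The small intestine and proximal list had a median of 0.90 for F/F against wild-type normal colon over 11 genes. Of these, 9 were higher (53.9% of all genes measured), 5 by 2-fold or more (0.482%), and Fabp6 (-0.46) and Gata4 (-0.42) were lower. On all arrays 3 of the 11 were below the median level of all genes. A distal list made up of posterior Hox genes had -0.63 over 7 genes, with 3 lower by 2-fold or more (0.537% of all genes measured). Between tumour and normal colon the proximal list had medians of -3.16 in F/F and -1.30 in wild-type mice, and the distal list 1.45 and 1.14. Of 8 tested proximal genes 5 fell and 1, Onecut2, rose by 3.08. Osr2 and Nts, among those that fell, passed the filter on low values through normal arrays only, and Onecut2 through tumour arrays only. Their directions were thus partly built into their being tested. Of 6 tested distal genes 3 rose and none fell, where 8.23% of all tested genes fell and 11.0% rose. Where along the colon each piece was cut is not in the labels, so position and genotype, and position and tumour, cannot be told apart in the values of the adipocyte genes. Smooth muscle, which forms the outer wall, had the opposite sign in normal colon: its 12 genes had a median of -0.63 for F/F against wild-type with 0 of 12 higher. In tumour 3 of the 12 fell, and the medians were -0.53 in F/F and -1.99 in wild-type mice. Mesothelium, the cell layer covering the gut, had a median of 0.13 over 8 genes for F/F against wild-type normal colon, and of its 4 tested genes none was called in tumour, Gpm6a at -0.82 (adjusted p = 0.0544) and Upk3b at -0.66 (adjusted p = 0.0929) differing most. Gpm6a passed under 7 alternatives (adjusted p = 0.0264 to 0.0471), among them all 3 other normalizations, and in none of the fits that left out 1 array (0.0723 to 0.176). Of the mesothelial genes 4 of the 8 were below the median level of all genes on all arrays. Gpm6a and Upk3b passed the filter on low values through normal arrays only, so a lower value in tumour was partly built in.

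For macrophages and endothelium, which share Fabp4 with adipocytes, no tested gene fell in tumour. Of 11 tested macrophage genes 5 rose and none fell, among them the lysozyme Lyz2 by 1.15 and Cd68 by 1.04. Of 8 tested endothelial genes none fell and 1, the cadherin Cdh5, rose by 1.19. Over all tested genes 11.0% rose and 8.23% fell, so the endothelial count is near the share that rose. The mean log2 signal of the 12 macrophage genes was 6.27 in F/F tumour and 6.44 in wild-type tumour, against 5.52 in F/F normal and 5.88 in wild-type normal, and that of the 11 endothelial genes was 5.24 in F/F tumour and 5.12 in wild-type tumour, against 4.68 in F/F normal and 4.82 in wild-type normal. For absorptive colonocytes, which express Pparg, 8 of 12 genes fell in tumour and none rose, with the alkaline phosphatase Alpi at -3.75. The colonocyte mean was 8.78 in F/F tumour and 7.46 in wild-type tumour, against 10.19 in F/F normal and 9.76 in wild-type normal. The part of these cells in the values of the adipocyte genes was not tested.

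Other genes of the adipocyte programme were counted in the same test, in which 8.23% of all tested genes fell and 11.0% rose. Of 10 tested adipogenic transcription factors 3 fell in tumour and none rose. Ppara fell by 1.75 (SE 0.29) and Ppard fell by 1.19 (SE 0.11), both relatives of Pparg that serve fatty acid oxidation in many tissues. Rxra, a retinoid X receptor with which they pair, fell by 1.07 (SE 0.14). The adipogenic factor Cebpa, at 5.16 in F/F tumour and 4.88 in wild-type tumour, against 6.08 in F/F normal and 5.22 in wild-type normal, did not pass (limma adjusted p = 0.0971). Nor did Zfp467 (-0.45, adjusted p = 0.113) and Nr1h3 (-0.44, 0.150). The other tested factors had positive differences that did not pass: Cebpd (0.56, adjusted p = 0.0511), Srebf1 (0.54, 0.0542), Ebf1 (0.39, 0.344) and Klf5 (0.21, 0.249). Of 11 tested genes of lipid droplets and lipolysis 1 fell, a count near the share over all tested genes. It was the monoglyceride lipase Mgll, which fell by 2.58 (SE 0.16). Pnpla2 (-0.03, limma adjusted p = 0.910) and Lipe (-0.36, adjusted p = 0.327), lipases of triglyceride breakdown, did not pass. The genes named here that did not pass were chosen after their values were seen. Ppara and Nr1h3 passed the filter on low values through normal arrays only, and Lipe through the F/F normal array alone. A lower value in tumour was thus partly built into their being tested.

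Of 15 tested genes of fatty acid and triglyceride synthesis 4 fell and 1 rose. Pck1, which feeds glycerol synthesis in fat, fell by 1.92, the malic enzyme Me1 by 1.60 and the acetyl-CoA carboxylase Acacb by 1.13, and the desaturase Scd1 rose by 0.86. Of 9 tested genes of fatty acid and glucose uptake 1 fell, the fatty acid translocase Cd36 by 1.48, and 1 rose, the insulin receptor substrate Irs1 by 1.01. Both counts are near the shares over all tested genes (8.23% fell and 11.0% rose). Of 12 tested adipokines and adipocyte products 5 fell and none rose, among them the carbonic anhydrase Car3 by 3.48, the carboxylesterase Ces1d by 1.63, the amine oxidase Aoc3 by 1.48 and the synuclein Sncg by 0.91. Of 12 tested PPAR target genes 9 fell and none rose, with the pantetheinase Vnn1 at -1.95, the pyruvate dehydrogenase kinase Pdk4 at -1.31 and the thiolase Acaa2 at -1.30. Many of these targets answer to PPAR alpha or delta in epithelium. Of the genes named here, Acacb, Car3, Ces1d and Vnn1 passed the filter on low values through normal arrays only. Irs1 passed it through tumour arrays only. The direction of each was thus partly built into its being tested. For F/F against wild-type normal colon the medians were 0.22 for the transcription factors, 0.34 for droplets and lipolysis, 0.50 for synthesis, 0.12 for uptake, 0.33 for adipokines and products and 0.26 for PPAR targets, each below the 1.11 of the 10-gene list. The small intestine and proximal list, at 0.90, was closer to it. The lists were chosen with earlier results of these data known, so this order is descriptive only.

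**Figure D4:**
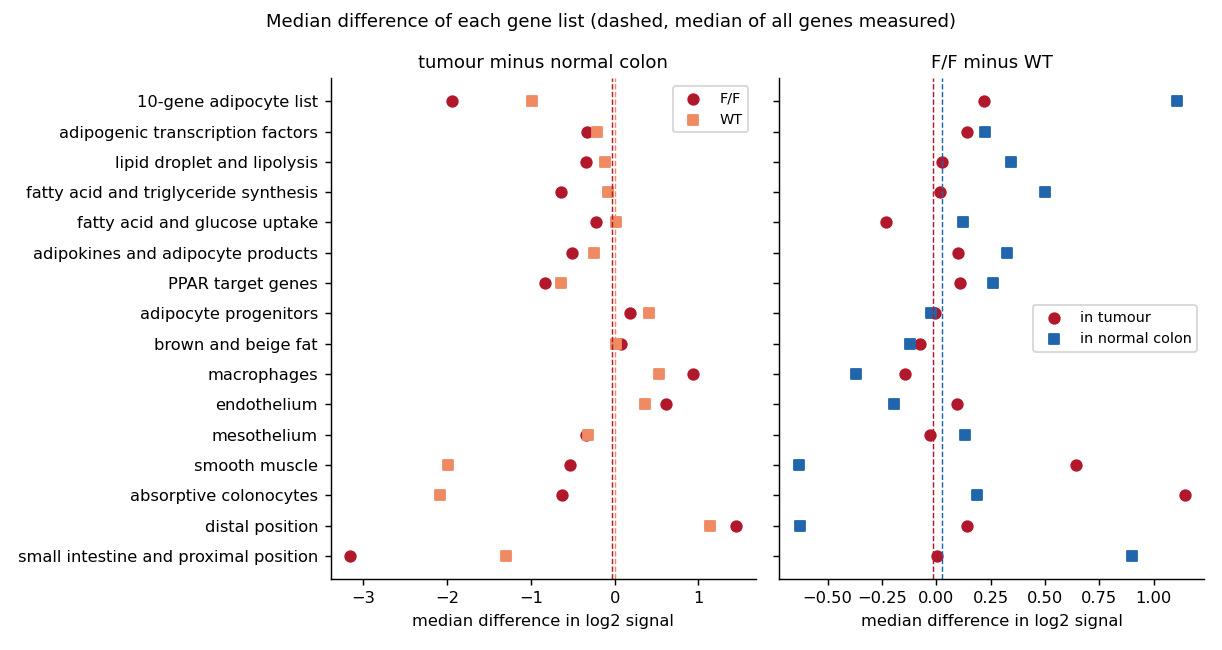
Median difference in log2 signal of each gene list, for tumour minus normal colon in F/F and wild-type (WT) mice (left panel) and for F/F minus WT in tumour and in normal colon (right panel), with dashed lines at the median of all genes measured. The 10-gene adipocyte list is at -1.95 and -0.98 in the left panel and at 0.22 in tumour and 1.11 in normal colon in the right panel.

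Relatives of the listed genes went different ways. In the resistin family Retnlg, made by myeloid cells, rose in tumour by 3.00 (SE 0.27, limma adjusted p = 0.0110), whereas Retnlb, the goblet cell member, fell by 2.78 (SE 0.62, adjusted p = 0.0474) with Retn. Retnlg had a log2 signal of 5.61 in F/F tumour and 6.91 in wild-type tumour, against 3.03 in F/F normal and 3.50 in wild-type normal. It passed the filter on low values through tumour arrays only, so that a higher value in tumour was partly built into its being tested. Retnlb was at 8.51 in F/F tumour and 6.67 in wild-type tumour, against 10.01 in F/F normal and 10.73 in wild-type normal, the reverse of the genotype order of Retn in normal colon. None of the 5 perilipins was called, and the ubiquitous Plin2 (-0.25, adjusted p = 0.207) and Plin3 (-0.42, adjusted p = 0.0999) had smaller fitted differences than Plin1 and Plin4. In the fatty acid binding protein family 2 of 4 tested genes fell, Fabp4 and the enterocyte form Fabp2, which fell by 4.15 (SE 0.38). Plin2 and Plin3 were chosen after their values were seen.

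The genes whose 4 values, each minus the mean of its gene, lay closest to the median profile of the 9 adipocyte genes were sought among the 12060 tested genes. The measure was the root mean square difference over the 4 arrays, in log2 units. The 10 nearest other genes were the cytoskeletal adaptor Pstpip2 (0.09), the sterol carrier Stard5 (0.11), the microtubule binding Mapre3 (0.11), the reductases Akr1c19 and Cbr3 (0.12 each), the fatty acid transporter Slc27a4 (0.12), the epoxide hydrolase Ephx2 (0.12), the peptidase Naaladl1 (0.14), Cd36 (0.14) and Ces1d (0.14). Retn was nearest among the members at 0.13, the 8th of all tested genes, and Plin1 farthest at 0.48, the 759th. The members themselves set the median profile, so their closeness to it is partly built in and their ranks are descriptive only. Pstpip2 had a log2 signal of 6.84 in F/F tumour and 6.44 in wild-type tumour, against 8.52 in F/F normal and 7.63 in wild-type normal. Over only 4 arrays many genes share such a profile.

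**Figure D5:**
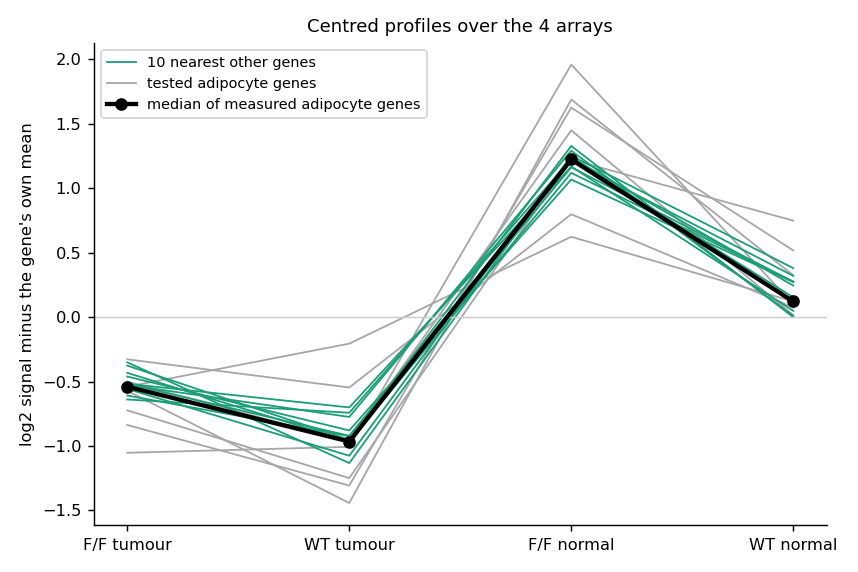
Log2 signal minus the mean of each gene (vertical axis) on the 4 arrays, for the median of the 9 measured adipocyte genes (black), the 7 tested adipocyte genes (grey) and the 10 nearest other genes (green). The black line is at -0.54 in F/F tumour and -0.96 in wild-type (WT) tumour, and at 1.22 in F/F normal and 0.12 in WT normal.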

How the data were processed

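Colon RNA was measured in 4 groups of 1 array each. The authors deposited log2 signals, 1 per probe set for 41345 probe sets, and the submitters' processing notes name oligo and RMA without versions. RMA equalises the intensity distributions of the arrays and leaves neither detection calls nor errors for single values, and the number of arrays limits the precision. Columns were taken by sample name. Of the probe sets, 23521 had exactly 1 gene in the platform annotation, 1814 had several and 16010 were unnamed in it, and 23328 of the first matched RefSeq (GRCm38.p6) by gene ID, which gave the symbols of 22180 genes. Where a gene had several, its probe set of highest mean was used. A gene was tested if its highest value reached the median level over genes (log2 4.67), which left 12060. Where a gene reached that level in 1 tissue only, the direction of its tumour difference was partly built into its being tested.

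Differences between 2 arrays have no replicate check and no p-value. A model with tissue and genotype as additive terms was fitted with limma 3.58.1 in R 4.3.3 (eBayes with trend, Benjamini-Hochberg adjustment over all tested genes at 0.05). It has 1 residual degree of freedom and a prior of 3.40. Its p-values are for the tissue and genotype terms. Their error rests on the departure from additivity between these arrays and on the prior, not on the spread between animals. "Rose" and "fell" refer to this test. Of each list at most 4 genes were named, those with the largest fitted tumour difference among called genes, or 2 where none was called, besides all members and exceptions stated. The members and lists were chosen with earlier results of these data known. Promoter windows came from the RefSeq table.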

Additional observations from a re-analysis of the deposited data

Results flagged for a closer look

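For 4 of the 9 measured genes the F/F array was below the wild-type array in tumour and above it in normal colon. Of all genes measured, 47.5% were higher on the F/F array in tumour and 53.9% in normal colon. The share of all genes with such opposite directions was not counted, so the 4 are given as values only. Plin1 had a difference, F/F minus wild-type, of -0.33 in tumour and 0.50 in normal colon. Lpl had -0.046 in tumour and 1.86 in normal colon, Lep -0.11 and 1.31, and Adipoq -0.11 and 0.47. With 1 array per group the change of direction was not tested. All 4 genes were below the median level of all genes on both tumour arrays, where a direction is uncertain.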

How the results depend on the processing

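The genotype test called no gene under any alternative run. In tumour 4 adipocyte genes fell, and 2 fell with tissue as the only term or when the lowest value had to reach the median level, a filter that Pparg and Fabp4 alone passed. With tissue as the only term and 1 array left out, 0 to 5 fell, none without the F/F normal or the wild-type tumour array; over all genes 38 to 905 rose and 11 to 745 fell (106 and 47 without the wild-type tumour array, 339 and 163 without the wild-type normal array), against 1331 and 992 with all arrays and both terms. The genes that fell were 1493 with each array centred on its median and 651 with tissue as the only term. Centring put the median of the tested genes for F/F tumour against normal at -0.06, against 0.04 as deposited. Under the filter on the lowest value, the 2 genes left had medians of -1.88 for wild-type tumour against normal and 0.70 for F/F against wild-type tumour; 2 were lower by 2-fold or more in each tumour, and 1 was higher by 2-fold or more in F/F normal colon. The wild-type tumour median was -0.665 with the mean of the probe sets. Set against wild-type normal colon, a choice added after seeing the data, the F/F tumour had a median of -0.66, with 3 genes lower by 2-fold or more (1.29% of all genes measured). Each of the 7 tested genes kept a negative fitted tumour difference in every fit it entered. Both tumour arrays lay below both normal arrays for each, so this sign was fixed in advance wherever the deposited values were used. No paired analysis was possible because each group has 1 array and the labels number no replicates. Low signals on the tumour arrays limit the sizes of Lpl, Plin1, Plin4, Adipoq and Lep. The same limit holds for Retn and Cidec, at 4.28 and 4.25 in wild-type tumour and 4.75 and 4.72 in F/F tumour.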

Other observations

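Genes of fat biology outside the white adipocyte gave mixed calls in tumour, where 11.0% of all tested genes rose and 8.23% fell. Of 7 tested markers of adipocyte progenitors 4 rose and 1 fell. Among those that rose were the tissue factor gene F3 by 1.61, the adhesion molecule Icam1 by 1.36 and the growth factor receptor Pdgfra by 1.06. The matrix protein Dpt fell by 1.16. The other 2 measured markers, Pi16 and Dlk1, were below the median level of all genes on all arrays and were not tested. Which cells carried these signals was not tested. Of 6 tested genes of brown and beige fat 2 rose and 1 fell, with the proton channel Otop1 at 1.70, the deiodinase Dio2 at 1.66 and the cytochrome oxidase subunit Cox7a1 at -0.91, while the uncoupling protein Ucp1 read between 3.05 and 3.15 on all 4 arrays. Otop1 and Dio2 passed the filter on low values through tumour arrays only, so that a higher value in tumour was partly built into their being tested. Of the 6 tested genes of adipokine receptors and complement partners 1, Cdh13, which binds adiponectin, rose by 2.15 (SE 0.19, limma adjusted p = 0.0109). Cdh13 had a log2 signal of 6.01 in F/F tumour and 6.61 in wild-type tumour, against 4.10 in F/F normal and 4.22 in wild-type normal. It too passed the filter through tumour arrays only.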
